A study of Mus musculus with 10 samples.

Results

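Complex I (NADH:ubiquinone oxidoreductase) is the entry point for electrons from NADH into the mitochondrial respiratory chain. Its peripheral arm, which projects into the matrix, carries the flavin and the iron-sulfur clusters that pass electrons to ubiquinone, and its membrane arm pumps protons across the inner membrane. The catalytic core is assembled from nuclear-encoded peripheral subunits and mitochondrially encoded membrane subunits, and a shell of nuclear-encoded accessory subunits surrounds that core. In macrophages the complex is known both for its support of ATP production and as a site of superoxide production, and the balance between respiration and glycolysis is a well-studied feature of macrophage activation.

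The nuclear subunits were taken as every gene whose symbol begins with Nduf, followed by a, b, c, s, v or ab and a number, with the assembly factors (Ndufaf) left out. Of 17279 genes in the count table, 37 carried such a symbol, and all 37 were among the 16949 genes that passed the filter on low counts. Of these, 36 encode subunits of the assembled complex, and Ndufa4, which is now known as a subunit associated with complex IV, was kept because its symbol matches. The genes were chosen on the contrast reported here, after Ndufb10 and other members had been seen lower in pMCAO libraries, so the differences between groups are given as descriptions with no test of the members. The 37 genes lie on 15 chromosomes, and gene positions below are those of the GENCODE M21 annotation of GRCm38.

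The libraries were RNA sequencing of CX3CR1-GFP+ macrophages, sorted by flow cytometry from the lamina propria of the peeled small intestinal mucosa of mice with the genotype label C57BL6/J. Mice had undergone sham surgery or permanent middle cerebral artery occlusion (pMCAO), a model of ischaemic stroke without reperfusion, and tissue was collected 24 h after surgery. Each group held 5 libraries, labelled as biological replicates. The labels give no age and do not state the reporter allele. The library names of replicate 1 in both groups contain the word pool followed by numbers. Whether animals were pooled in them, and how many, is not stated. Both are called pooled libraries below after their names only. The comparison addresses the effect of stroke on the transcriptome of these cells.

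Total counts ranged from 18894151 to 60665972 in the sham libraries and from 6430643 to 28672285 in the pMCAO libraries, with the lowest total in pMCAO replicate 1. Of 13 macrophage markers, 13 were tested, and their summed level was 8540 to 18985 counts per 1000000 counts of the library (CPM) in sham and 9491 to 19550 CPM in pMCAO libraries. Cx3cr1, the gene of the sorted reporter, lay between 98.8 and 224 CPM in sham and between 108 and 215 CPM in pMCAO libraries. The 10 epithelial cell markers were also detected in every library, with a summed level of 484 to 1026 CPM in sham and 126 to 1221 CPM in pMCAO libraries, and the lowest single value was 0.492 CPM for Lgr5. Summed T cell markers (7 genes) were at 202 to 466 CPM in sham and 192 to 285 CPM in pMCAO libraries. Cd4 alone was at 113 to 179 CPM in sham and 93.2 to 178 CPM in pMCAO libraries. It gave 179 of the 202 CPM in sham replicate 4, where Cd3e was at 0.817 CPM, and 113 of 466 CPM in sham replicate 5. B and plasma cell markers (7 genes) were at 825 to 24820 CPM in sham and 1131 to 27360 CPM in pMCAO libraries. Dendritic cell markers (6 genes) were at 88.0 to 428 and 95.8 to 337 CPM. Eosinophil (3 genes), stromal and endothelial (6 genes) and glial (1 gene) markers had highest sums of 35.5, 98.9 and 4.9 CPM over all libraries. Sham replicate 5 and pMCAO replicate 4 stood apart in Xist, at 1760 and 4460 CPM, against 1.39 to 4.92 CPM in the other libraries.

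Complex I subunit transcripts were lower in pMCAO than in sham libraries in the fitted values of 36 of the 37 genes, and only Ndufs3 had a fitted value above 0. Over all genes tested, 50.6% had a log2 fold change below 0. The median log2 fold change of the members was -0.42, with quartiles of -0.51 and -0.27, against a median of -0.006 over all genes tested. On the linear scale the members' median corresponds to a fold of 0.746. Without the 2 libraries that stood apart in Xist the median was -0.35 with 36 members below 0, and without the 2 pooled libraries it was -0.31 with 33 below 0. Since this contrast chose the members, nothing was read from these counts beyond the direction and size of each value.

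No gene of the whole table passed a false discovery rate of 0.05 in edgeR's quasi-likelihood test (0.0% of genes called), and the smallest Benjamini-Hochberg adjusted p over all genes was 0.922. The number of genes with an unadjusted p under 0.05 was 799 (4.71%), of which 8 were complex I members, all lower in pMCAO libraries, among them Ndufs8, Ndufb10, Ndufs4, Ndufb2, Ndufa6, Ndufv3 and Ndufa3. This member count ranged from 4 to 16 when 1 library at a time was left out. limma-voom also called 0 genes after adjustment (882 at an unadjusted p under 0.05), and DESeq2 called 3 genes (1011 unadjusted), none of them a member. In these bulk libraries, fewer cells of a type and less RNA per cell cannot be told apart.

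**Figure D1:**
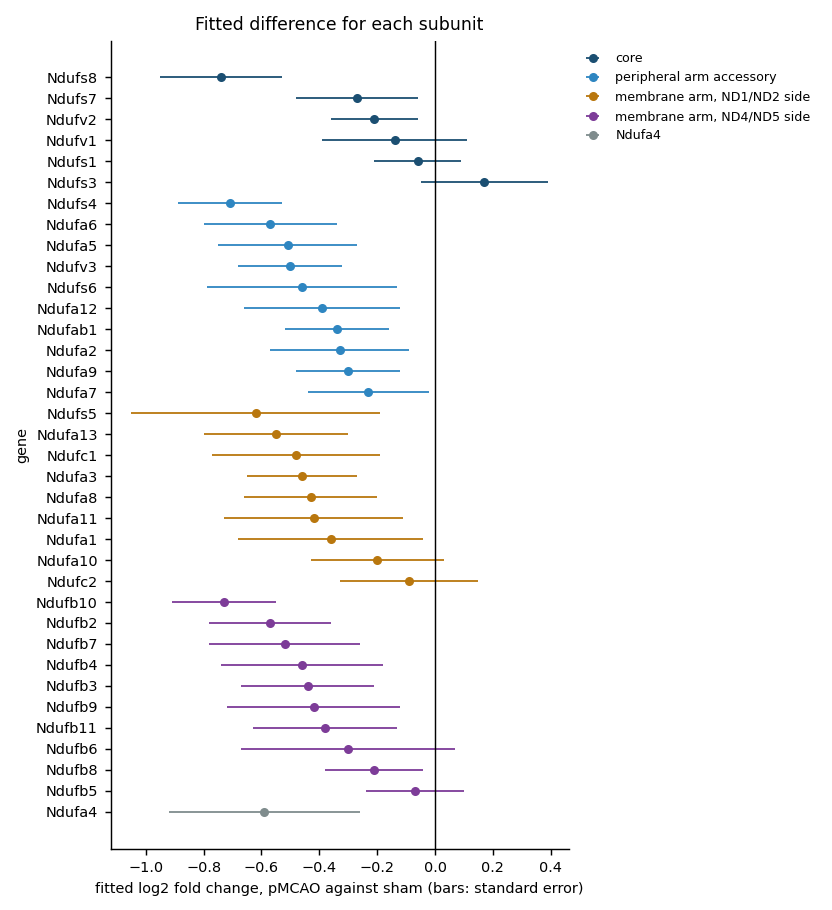
Fitted log2 fold change of pMCAO against sham for 36 of the 37 genes (points) with its standard error (bars), coloured by place in the complex. The values run from -0.74 for Ndufs8 to 0.17 for Ndufs3, and Ndufs3 is the only point to the right of 0.

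The difference was not shared evenly by the pMCAO libraries. The mean log2 CPM of the 36 subunits was 5.49, 5.43, 5.46, 5.18 and 5.17 in sham replicates 1 to 5, and 4.74, 5.35, 5.18, 4.58 and 4.84 in pMCAO replicates 1 to 5. The pMCAO replicates 2 and 3 therefore lay within the sham range, and replicates 1, 4 and 5 lay below every sham library. The lowest library of each group, sham replicate 5 and pMCAO replicate 4, was the one that stood apart in Xist. Sham replicate 4 was nearly as low as sham replicate 5, and a link with Xist was not tested. Group means were 5.35 ± 0.16 for sham and 4.94 ± 0.32 for pMCAO (SD, n = 5 each), a difference of -0.41.

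Counted gene by gene, pMCAO replicate 4 was below all 5 sham libraries for 30 of the 37 members, replicate 1 for 28 and replicate 5 for 26, whereas replicate 3 was below them for 12 and replicate 2 for 4. In the other direction, replicate 3 exceeded every sham library for 7 members and replicates 2 and 4 for 1 each. The share of all genes tested that lay outside the sham range in each library was not counted. These member counts therefore describe the libraries only. The median over members of the level relative to the sham mean was 0.624, 0.99, 0.949, 0.567 and 0.733 in pMCAO replicates 1 to 5. Ndufb10 and Ndufs4 were the only members whose groups did not overlap, with pMCAO lower. Over all genes tested, 91 (0.537%) showed such a separation with pMCAO lower. All 5 pMCAO libraries were below the sham mean for 12 members, among them Ndufb10, Ndufs8, Ndufs4, Ndufv2, Ndufv3, Ndufa3, Ndufa6, Ndufa9, Ndufab1, Ndufb2 and Ndufb4. The share of all genes tested with this pattern was not counted, so whether 12 members is many cannot be told from it.

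**Figure D2:**
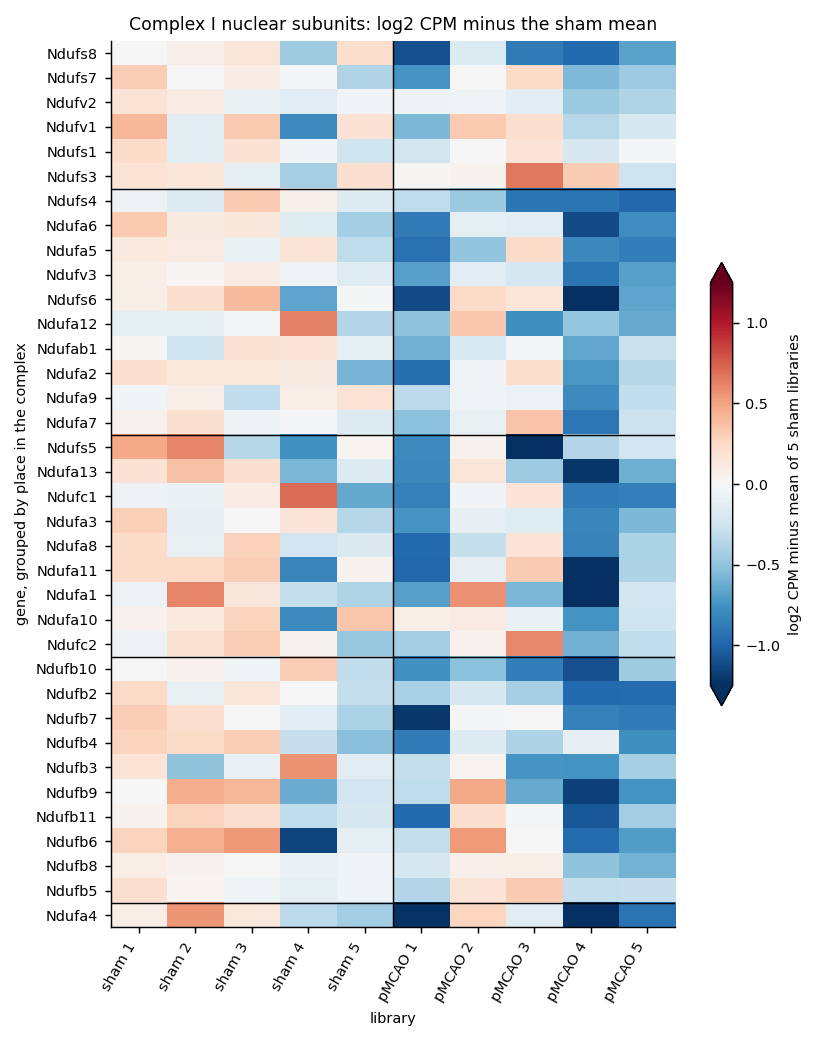
Level of 36 of the 37 genes (rows, grouped by place in the complex) in each library (columns), as log2 CPM minus the mean of the 5 sham libraries, with blue for lower and red for higher. The pMCAO columns 1, 4 and 5 are blue in most rows, while columns 2 and 3 hold both colours.

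Among the pMCAO libraries, summed epithelial markers varied along with this split. Every marker but Epcam and Lgr5 was higher in replicates 2 and 3 than in each of replicates 1, 4 and 5. Single genes made up much of the higher sums, with Fabp2 at 493 CPM in replicate 2 and Muc2 at 698 CPM in replicate 3. The pMCAO replicates 1, 4 and 5, which were lowest for the subunits, had summed epithelial markers of 450, 126 and 222 CPM, the lowest of all libraries, against 1150 and 1221 CPM in replicates 2 and 3. The sham libraries did not follow the same order. Sham replicate 2 had the lowest sham epithelial sum (484 CPM) with a subunit mean of 5.43. Sham replicate 5 had 679 CPM with the lowest sham subunit mean, 5.17. Among the epithelial markers, 8 of 10 had a log2 fold change below 0 and the list median was -0.49. Fabp2 (0.04) and Muc2 (0.45) were above 0. For the T cell markers, 7 of 7 were below 0 and the list median was -0.87. Neither list held a gene with an unadjusted p under 0.05. T cell sums did not follow the split. They were 192, 212 and 285 CPM in pMCAO replicates 1, 4 and 5, and 248 and 212 CPM in replicates 2 and 3. Of the macrophage markers, 5 of 13 were below 0, with a median of 0.15. List medians were -0.17 for B and plasma cell markers and 0.03 for dendritic cell markers. Epcam, which encodes an epithelial adhesion protein, was at 69.2, 126, 64.3, 14.1 and 48.8 CPM in pMCAO replicates 1 to 5 and at 83.2 to 130 CPM in sham libraries. The part of epithelial or T cell RNA in the subunit values was not tested. Total counts of pMCAO replicates 1, 4 and 5 were 6430643, 11605371 and 27004036, and those of replicates 2 and 3 were 28672285 and 11299863.

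**Figure D3:**
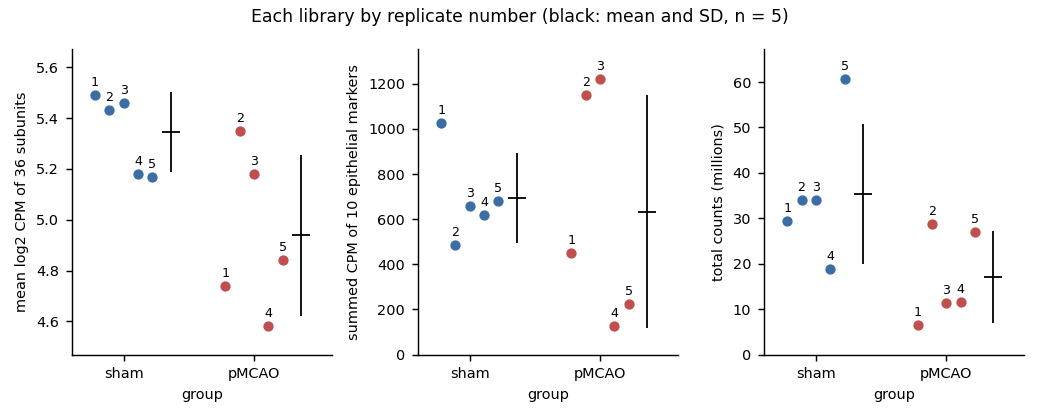
Mean log2 CPM of the 36 subunits (left), summed CPM of 10 epithelial markers (middle) and total counts (right) for each library, numbered by replicate, with the group mean and SD in black. The pMCAO replicates 1, 4 and 5 are the lowest libraries in the left panel and in the middle panel, but not in the right one.

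The 7 core subunits of the peripheral arm had a median log2 fold change of -0.21, which was -0.09 without both pooled libraries and -0.12 with the trend on transcript length removed, and 6 of 7 were below 0. Ndufs8 (ENSMUSG00000059734, chr19:3908863-3912774, minus strand), which carries iron-sulfur clusters on the path to ubiquinone, was at 45.3, 47.0, 50.2, 33.1 and 52.5 CPM in sham replicates 1 to 5 and at 21, 40.0, 24.5, 22.9 and 28.3 CPM in pMCAO replicates 1 to 5. Only pMCAO replicate 2 reached the sham range, so the groups overlapped by that library alone. The log2 fold change of -0.74 ± 0.21 (SE) was the lowest of all subunits.

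Fitted values of other core subunits lay closer to 0. Ndufs7, an iron-sulfur subunit close to the ubiquinone site, was at 40.5 ± 6.83 CPM in sham and 33.5 ± 9.74 CPM in pMCAO libraries (SD, n = 5). At the NADH end, Ndufv1, which binds flavin mononucleotide and NADH, was at 31.8 ± 9.30 and 28.9 ± 7.47 CPM, and Ndufv2, its iron-sulfur partner, at 57.1 ± 5.05 and 49.3 ± 6.22 CPM. Fitted log2 fold changes were -0.27 for Ndufs7, -0.21 for Ndufv2 and -0.14 for Ndufv1, all closer to 0 than the members' median.

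Ndufs1 and Ndufs3 had the highest fitted values of the nuclear subunits. Ndufs1 (ENSMUSG00000025968, chr1:63143596-63176833, minus strand), the largest iron-sulfur subunit, was at 60.5, 47.1, 58.5, 50.2 and 43.5 CPM in sham replicates 1 to 5 and at 43.8, 51.5, 57.8, 44.9 and 50.9 CPM in pMCAO replicates 1 to 5. Every pMCAO value lay inside the sham range, and the log2 fold change was -0.06 ± 0.15 (SE), which ran from -0.13 to 0 with 1 library left out and was 0.04 without both pooled libraries. Ndufs3 (ENSMUSG00000005510, chr2:90894634-90904827, minus strand), a scaffold of the ubiquinone-reducing part of the arm, was at 18.4, 18.1, 15.0, 12.2 and 18.6 CPM in sham and at 16.4, 16.8, 25.8, 20.3 and 13.6 CPM in pMCAO libraries. Replicates 3 and 4 of pMCAO exceeded every sham library, the other three did not, and the log2 fold change was 0.17 ± 0.22 (SE). That value was 0.02 without pMCAO replicate 3, 0.07 without sham replicate 4 and 0.27 without pMCAO replicate 5.

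For Ndufs3, 39.7% of the 50-base stretches of its principal transcript also occur in transcripts of other genes, mainly Gm12251 and the antisense neighbour Kbtbd4, so its count is less certain than those of Ndufs8, Ndufb10 and Ndufs4, which share no such stretch. Both of those other genes have rows of their own in the table. Its lowest library held 112 reads.

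The 10 peripheral arm accessory subunits were all below 0, with a median log2 fold change of -0.42. Ndufs4 (ENSMUSG00000021764, chr13:114287795-114388258, minus strand), a small subunit at the junction of the NADH-oxidising part whose loss in mice causes a Leigh-like encephalopathy, was at 57.9, 54.1, 76.2, 63.6 and 54.3 CPM in sham replicates 1 to 5 and at 48.8, 43.9, 32.1, 32.2 and 30.7 CPM in pMCAO replicates 1 to 5. The highest pMCAO library was below the lowest sham library, and the log2 fold change was -0.71 ± 0.18 (SE). Ndufs4 was also low in pMCAO replicates 2 and 3, where the mean of the subunits lay within the sham range.

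The other accessory subunits of this arm ranged from Ndufa6 (-0.57), an LYR-motif protein that docks the acyl carrier protein, to Ndufa7 (-0.23). Ndufv3, which sits beside the flavin-binding subunit, was at 41.9 ± 2.99 CPM in sham and 29.7 ± 6.86 CPM in pMCAO libraries (SD, n = 5). Ndufab1, the mitochondrial acyl carrier protein, which also serves fatty acid synthesis and iron-sulfur cluster formation, had a log2 fold change of -0.34. Ndufs6, a zinc-binding subunit needed late in assembly, was the least even of this group, with 16.2 CPM in pMCAO replicate 4 and 54.9 CPM in replicate 2.

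In the membrane arm, the 9 accessory subunits on the ND1 and ND2 side had a median log2 fold change of -0.43 and the 10 on the ND4 and ND5 side also -0.43, with all 19 below 0. Ndufb10 (ENSMUSG00000040048, chr17:24722060-24724478, minus strand), a subunit on the distal side that faces the intermembrane space, was at 45.5, 47.3, 43.7, 56.4 and 36.6 CPM in sham replicates 1 to 5 and at 27.0, 31.8, 25, 21.2 and 33.3 CPM in pMCAO replicates 1 to 5. The groups did not overlap, although pMCAO replicate 5 at 33.3 CPM and sham replicate 5 at 36.6 CPM lay close together. Its log2 fold change was -0.73 ± 0.18 (SE), a fold of 0.603.

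Ndufb2 (ENSMUSG00000002416, chr6:39592574-39603382, plus strand), a small subunit of the same side, was at 27.1, 21.4, 25.3, 23.0 and 18.6 CPM in sham replicates 1 to 5 and at 17.3, 19.9, 17.2, 11.6 and 11.7 CPM in pMCAO replicates 1 to 5. Only pMCAO replicate 2 lay above the lowest sham library, and the log2 fold change was -0.57 ± 0.21 (SE). Ndufb5 and Ndufb8 had the values closest to 0 on this side, at -0.07 and -0.21.

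On the ND1 and ND2 side, Ndufs5 (ENSMUSG00000028648, chr4:123712710-123718202, minus strand), which also faces the intermembrane space, was at 9.98, 11, 5.62, 4.21 and 7.35 CPM in sham replicates 1 to 5 and at 4.10, 7.47, 1.52, 5.58 and 6.08 CPM in pMCAO replicates 1 to 5. The groups overlapped, since 3 pMCAO libraries lay above the lowest sham library. Its log2 fold change of -0.62 had a standard error of 0.43, the widest among the members, and its lowest library held 15 reads. Without pMCAO replicate 3 the log2 fold change was -0.40. Of its 50-base stretches, 31.1% also occur in the gene BC002163.

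Ndufa1 (ENSMUSG00000016427, chrX:37187588-37191163, minus strand), an X-linked membrane subunit, was at 55.7, 89.8, 65.1, 47.7 and 45.3 CPM in sham replicates 1 to 5 and at 36.6, 87.7, 39.6, 23.1 and 49.9 CPM in pMCAO replicates 1 to 5. The groups overlapped, and the highest pMCAO library, replicate 2, was close to the highest sham library. The log2 fold change was -0.36 ± 0.32 (SE), and it was -0.70 without pMCAO replicate 2, -0.19 without pMCAO replicate 4 and -0.17 without sham replicate 2. Ndufa13, also known as a cell death regulator, had a log2 fold change of -0.55, and Ndufc2 one of -0.09. Ndufa4, the member that belongs with complex IV, was at 165 ± 46.4 CPM in sham and 110 ± 57.9 CPM in pMCAO libraries (SD, n = 5), and its log2 fold change was -0.59.

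The promoters of the 2 subunits with the lowest fitted values, Ndufs8 and Ndufb10, are shown with those of Ndufs4 and Ndufs3. The groups of Ndufs4 did not overlap, like those of Ndufb10, and Ndufs3 had the fitted value above 0. Ndufs4 and Ndufs3 were added after their values were seen. Each sequence is the 250 bases before the RefSeq transcription start (build GRCm38.p6), read 5′ to 3′ on the strand of the gene, here the minus strand for all 4. Capitals mark matches on either strand to the 4 motifs searched, TGCGCA (core of the NRF1 site), CCGGAAG (ETS family, including GABP), AAGATGGCG (YY1) and GGGCGG (GC box), where the whole match lies within the printed stretch. The sequences lie at chr19:3912775-3913024 for Ndufs8, chr17:24724424-24724673 for Ndufb10, chr13:114388095-114388344 for Ndufs4 and chr2:90904722-90904971 for Ndufs3. The RefSeq start differs from the GENCODE M21 gene end for Ndufb10, Ndufs4 and Ndufs3. Part of each of those windows therefore lies within the GENCODE gene, and positions below are counted from the RefSeq start.
Ndufs8: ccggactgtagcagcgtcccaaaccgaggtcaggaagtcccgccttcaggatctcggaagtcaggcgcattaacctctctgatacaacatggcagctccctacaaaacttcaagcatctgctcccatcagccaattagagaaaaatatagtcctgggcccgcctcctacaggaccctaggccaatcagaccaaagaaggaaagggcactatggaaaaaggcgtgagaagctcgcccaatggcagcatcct
Ndufb10: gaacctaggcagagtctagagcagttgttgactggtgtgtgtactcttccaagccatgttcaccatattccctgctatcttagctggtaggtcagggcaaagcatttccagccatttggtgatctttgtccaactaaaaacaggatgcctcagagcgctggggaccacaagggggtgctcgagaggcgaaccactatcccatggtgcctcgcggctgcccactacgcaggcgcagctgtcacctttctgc
Ndufs4: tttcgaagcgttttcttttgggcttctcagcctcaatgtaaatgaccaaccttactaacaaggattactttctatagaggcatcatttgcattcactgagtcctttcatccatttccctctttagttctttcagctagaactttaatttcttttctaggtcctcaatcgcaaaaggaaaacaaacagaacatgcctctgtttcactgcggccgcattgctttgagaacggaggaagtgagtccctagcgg
Ndufs3: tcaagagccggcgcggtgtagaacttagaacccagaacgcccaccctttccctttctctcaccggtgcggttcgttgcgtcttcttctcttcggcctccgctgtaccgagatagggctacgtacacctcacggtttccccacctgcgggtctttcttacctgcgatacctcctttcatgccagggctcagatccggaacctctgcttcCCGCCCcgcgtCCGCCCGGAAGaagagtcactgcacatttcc

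In these windows only Ndufs3 held whole matches. A CCGGAAG match began 27 bases before the start and overlapped a GC box that began 31 bases before it, and another GC box began 42 bases before it. In Ndufb10 an NRF1 core began 3 bases before the start and ran across it. After the start, Ndufs8 had a CCGGAAG match at base 16, Ndufs4 a YY1 match at base 36 and Ndufs3 another CCGGAAG match at base 2. GC content of the 250 bases was 53.2% for Ndufs8, 54.4% for Ndufb10, 42.0% for Ndufs4 and 59.2% for Ndufs3, against a median of 57.6% over the 33 members with an entry and 59.2% over 10492 tested genes.

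Of the 37 members, 33 matched a RefSeq promoter entry of 250 bases before to 50 bases after the start. Members and tested genes were counted by gene, with a match in any entry of the gene, whereas all promoters were counted by single entry. The shares of tested genes are therefore the like comparison. The NRF1 core was found in 10 members (30.3%), compared with 7.76% of all 32851 promoters and 15.2% of the 10492 tested genes with an entry. YY1 matches were found in 5 members (15.2%), namely Ndufa9, Ndufc1, Ndufs4, Ndufs6 and Ndufs7, compared with 1.4% and 3.35%. ETS matches were found in 4 members (12.1%; 8.86% of all promoters and 19.0% of tested genes) and GC boxes in 15 (45.5%; 35.7% and 64.9%). Ndufa2, Ndufb9 and Ndufs1 were among the members with no entry.

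Levels of the subunits differed widely within the sham libraries. Per kilobase of the longest annotated transcript, Ndufa1 was highest at 145 ± 43.0 CPM per kilobase (SD, n = 5) and Ndufb2 lowest at 5.28 ± 0.759. Ndufa2 (105 ± 20.4) and then Ndufb11 (100.0 ± 17.6) came next among the subunits, and neither of these neighbours in the order differed by more than the larger SD of the pair. This order depended on the transcript chosen. For Ndufb2 the longest transcript has 4371 bases and the shortest annotated as principal has 455, which moves its level to 50.7 CPM per kilobase. With the shortest principal transcript, Ndufc1 was highest at 166 and Ndufb4 lowest at 11.7 CPM per kilobase.

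Among the core subunits, Ndufs3 was at 15.7 and Ndufs8 at 45.4 CPM per kilobase with the longest transcripts. Ndufab1, the acyl carrier protein, was at 8.36 ± 1.05 with a transcript of 3479 bases and at 20.5 with one of 1416 bases. By mean log2 CPM, unscaled for transcript length, 14 of the 37 members lay in the highest of 5 equal bins of all tested genes. The bin below it held 18.

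**Figure D4:**
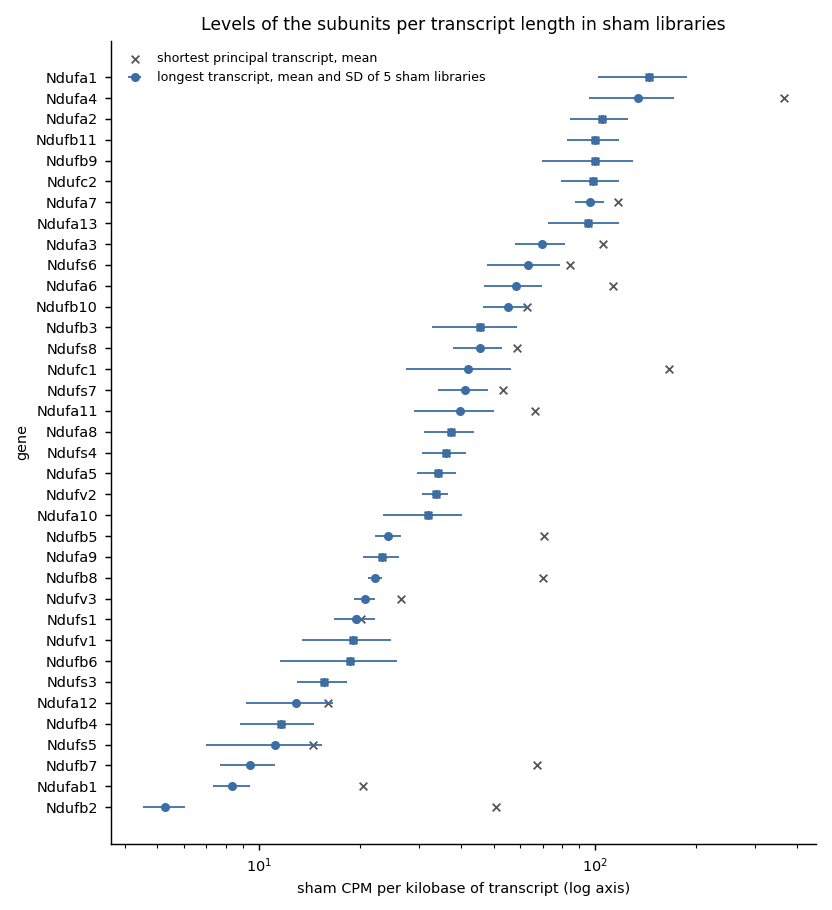
Level of 36 of the 37 genes in the sham libraries, as CPM per kilobase on a log axis, with the longest transcript (points, mean and SD of 5 libraries) and with the shortest principal transcript (crosses, mean). Points run from 5.28 for Ndufb2 to 145 for Ndufa1, and the cross of Ndufb2 lies far to the right of its point, at 50.7.

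Transcript length is a property the members share. The median longest transcript was 1046 bases over the members and 2867 bases over all genes tested, and 23 of the 37 members lay in the shortest of 5 equal bins of genes (38 to 1284 bases). Over all genes, the median log2 fold change was -0.11 in that bin, then -0.08, -0.02, 0.03 and 0.08 with increasing length. The members in the shortest bin had a median of -0.44. With the trend on transcript length removed, the median of the members was -0.29 and 35 of 37 were below 0. Bins and trend used the longest transcript, which placed Ndufb2 (4371 bases), Ndufb7 (4435) and Ndufab1 (3479) among long genes. Their shortest principal transcripts have 455, 623 and 1416 bases, so the trend may be removed wrongly for them. Ndufb2 was at -0.57 in the main fit and -0.59 with the trend removed.

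Sequence shared with other genes was counted for every member. The 16 members with no 50-base stretch in another gene had a median log2 fold change of -0.48 and were all below 0, and the 21 with some shared stretch had a median of -0.38, with 20 below 0. More than 30% was shared in Ndufs3, Ndufb4 (37.0%), Ndufb6 (34.1%) and Ndufs5. Exons of 14 members overlap an antisense gene, and whether the counting used strand is not given in the sources used here, so reads of such pairs may not have been told apart. The 23 members with no antisense exon were all below 0, with a median of -0.44.

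The mitochondrially encoded partners of these subunits, which form the proton-pumping core of the membrane arm, had a median log2 fold change of -0.08. All 7 fitted values were below 0, from -0.45 for mt-Nd4l and -0.14 for mt-Nd1 to -0.01 for mt-Nd4 and mt-Nd6, and 0 of 7 had an unadjusted p under 0.05. The value of mt-Nd4l had a standard error of 0.43 and came from low levels, 2.36 CPM in sham and 1.72 CPM in pMCAO libraries. The median ran from -0.21 (without sham replicate 5) to 0.09 (without sham replicate 4) with 1 library left out, and was 0.04 with the length trend removed. mt-Nd5 was at 4590 ± 1130 CPM in sham and 4480 ± 677 CPM in pMCAO libraries (SD, n = 5). The summed level of the 36 nuclear subunits was 6.88% to 15.8% of that of the 7 mitochondrial ones in sham and 7.64% to 12.9% in pMCAO libraries, and every pMCAO value lay inside the sham range.

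Assembly factors, which build the complex and leave it, were less uniform. Of 19 tested, 13 were below 0, with a median of -0.22, and 2 had an unadjusted p under 0.05. The median was -0.10 without sham replicate 3, -0.14 without sham replicate 2, -0.11 without pMCAO replicate 1 and -0.13 with the length trend removed. The lowest were Tmem70 (-0.64), better known for assembly of ATP synthase, and Ndufaf1 (-0.54), a factor for the ND2 module. The highest were Nubpl (0.65), which inserts iron-sulfur clusters, and Atp5sl (0.20), a factor for the distal membrane arm.

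Nuclear subunits of complexes II to V had a median of -0.29, with 35 of 38 below 0 and 8 with an unadjusted p under 0.05. The median was -0.17 without pMCAO replicate 4 and also -0.17 without both pooled libraries. The lowest were Atp5k (-0.95) and Atp5j2 (-0.71), both small membrane subunits of ATP synthase, and the highest were Uqcrc1 (0.88), a core protein of complex III, and Atp5g2 (0.69), a c-ring subunit. Uqcrc1 was at 126 ± 158 CPM in pMCAO libraries (SD, n = 5), a spread larger than its mean. It was at 402 CPM in pMCAO replicate 3 and 118 CPM in replicate 2, while the other 3 pMCAO libraries lay below every sham library. Atp5g2 was at only 1.09 CPM in sham and 1.78 CPM in pMCAO libraries, with a standard error of 0.62.

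Among 17 other mitochondrial proteins, 13 were below 0 and the median was -0.18, or -0.10 without pMCAO replicate 4 and -0.06 without both libraries that stood apart in Xist. The lowest were Tomm22 (-0.50), an outer membrane import receptor, and Phb (-0.44), an inner membrane scaffold, and the highest were Timm23 (0.53), the inner membrane import channel, and Vdac1 (0.16), the outer membrane pore. Of 11 regulators of respiratory chain genes, 5 were below 0, with a median of 0.06 that ran from -0.03 (without sham replicate 4) to 0.21 (without sham replicate 2) with 1 library left out. Ppargc1a, a coactivator of mitochondrial biogenesis, had the lowest value at -1.04 with a standard error of 0.75, followed by Polrmt (-0.41), the mitochondrial RNA polymerase, and Nrf1 (0.28) and Gabpa (0.27), which bind the motifs named above, had the highest. The medians of these lists were not tested against that of the complex I subunits.

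**Figure D5:**
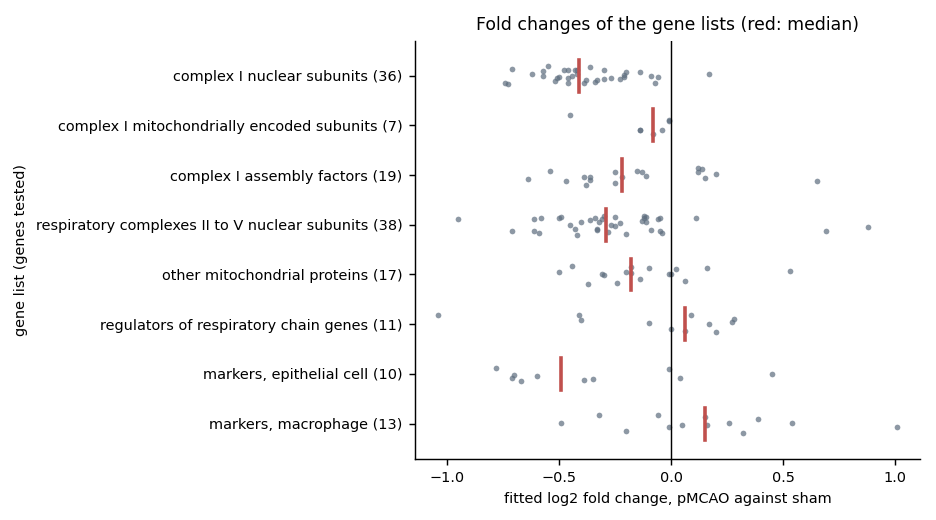
Fitted log2 fold change of pMCAO against sham for the tested genes of 8 lists (points, with the number of genes in the list in parentheses; 1 subunit is not drawn), with the list median as a red line. The medians are -0.41 for the 36 complex I nuclear subunits, -0.29 for complexes II to V, -0.08 for the mitochondrially encoded subunits and 0.06 for the regulators, while the epithelial markers have a median of -0.49.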

How the data were processed

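The data were read counts per gene for 10 libraries, 5 sham and 5 pMCAO, deposited by the authors in a single table together with CPM values, which equal the deposited counts scaled to 1000000 per library to within 0.0005. The table lists genes whose second-highest count is at least 10. The submitters' processing notes name STAR, featureCounts and limma and the build GRCm38 (mm10); versions, annotation and strand setting are not given in the sources used here. Counts were fitted with edgeR 4.0.16 in R 4.3.3 (filterByExpr, TMM scaling, quasi-likelihood test, Benjamini-Hochberg adjustment over 16949 genes, no covariate), and the code was tested on simulated data. CPM in the report are TMM-scaled, and log2 CPM used a prior count of 2. The standard error (SE) of a fitted log2 fold change was not taken from the model. It is the absolute log2 fold change divided by the square root of the quasi-likelihood F statistic. Alternatives were DESeq2 1.42.0, limma-voom 3.58.1, upper-quartile and total-count scaling, no filter on low counts, a minimum of over 1 CPM in 5 libraries, a replicate block, a transcript length offset, and fits with libraries left out. The members and gene lists were chosen with earlier results of these data known. Values in every library are given for Ndufb10, the 4 subunits with the lowest and the 2 with the highest fitted log2 fold change, and those with the highest and lowest level per kilobase; for other lists of the pathway the 2 lowest and 2 highest genes are named. Sharing was counted over 50-base stretches of GENCODE M21 transcripts. Promoters are from RefSeq. Ndufb1, Ndufa4l2, Coa1 and neutrophil markers were not analysed here. The individual values of 1 member are not reported here, although it is counted in every total and median.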

Additional observations from a re-analysis of the deposited data

Results flagged for a closer look

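Of 36 groups of 5 libraries examined, 2 held a library far from the others, where about 1 in 20, or 1.8 groups, would be so by chance. The mean log2 CPM of the peripheral arm accessory subunits was lowest in sham replicate 5, with a gap to its neighbour of 0.829 of the range of the sham libraries (critical value 0.71). The mean log2 CPM of the mitochondrially encoded subunits was highest in pMCAO replicate 3, 0.728 of the pMCAO range away from the next library. Leaving out sham replicate 5 gave a median log2 fold change over the members of -0.48, and leaving out pMCAO replicate 3 gave -0.44.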

How the results depend on the processing

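The members' median log2 fold change stayed below 0 under all 20 alternatives, from -0.56 without pMCAO replicate 2 to -0.29 without pMCAO replicate 4 or with the length trend removed, and 33 (without both pooled libraries) to 36 of 37 members were below 0. The mean log2 CPM difference ranged from -0.51 to -0.30. The number of genes past a false discovery rate of 0.05 was 0 except with DESeq2, which called 3. The number of members with an unadjusted p under 0.05, 8 in the main setting, was 15 with a replicate block, 3 without both pooled libraries, and 4 to 16 with 1 library left out (16 without pMCAO replicate 2 or 3, 5 without pMCAO replicate 1 or 4 or sham replicate 3, and 4 without pMCAO replicate 5 or sham replicate 1). The replicate block called 0 genes after adjustment. Same-numbered libraries were not treated as pairs, since the labels do not say that a number marks a shared animal, batch or day and the correlations of their deviations, -0.00549 to 0.372, were not above 0.1 for every pair. Sham replicates 2 and 5 correlated best with their own number and the other sham libraries did not, so a pairing of some libraries is not settled by these values. Values that changed sign were the median of the mitochondrially encoded subunits (0.04 with the length trend removed, and -0.21 to 0.09 with 1 library left out), the median of the regulators (-0.03 to 0.21 with 1 library left out) and Ndufs1 (0.04 without both pooled libraries). The lowest level per kilobase was 11.7 with the shortest principal transcript, an alternative chosen after seeing the data. The cause was not tested for any of these. The depth behind the values is uneven, with totals from 6430643 to 60665972 counts and a lowest member count of 15 reads, in Ndufs5.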
